A study of Mus musculus with 16 samples.

Results

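The 10 genes described here encode the vascular endothelial growth factors Vegfa, Vegfb and Pgf with their receptors Kdr and Flt1, the angiopoietins Angpt1 and Angpt2 with their receptor Tek, and apelin (Apln) with its receptor Aplnr. They were chosen by gene symbol, and each matched 1 row of the 22468 genes in the count table. All 10 were among the 13412 genes with enough reads to be tested. Messenger RNA was sequenced from whole ventricles, above and below the ligature, of neonatal mice. There were 4 groups of 4 samples, namely Chrna7 KO mice after myocardial infarction (KO MI), WT mice after infarction (WT MI), Chrna7 KO mice after sham surgery (KO sham) and WT mice after sham surgery (WT sham). Chrna7 encodes the alpha 7 nicotinic acetylcholine receptor, the knockout line came from the Jackson Laboratory, and in infarction a coronary artery is tied off. The study title names the cholinergic anti-inflammatory pathway in heart regeneration, and the comparisons below ask how the vascular growth genes differ with genotype and surgery. The labels give no age in days, time after surgery, litter or sex, and do not say that each sample is a separate animal, so p-values measure only the spread between these samples.

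These genes encode the main secreted signals that build and maintain blood vessels. Vegfa drives endothelial cells to divide, sprout and become leaky through the tyrosine kinase receptor Kdr. Flt1 binds Vegfa more tightly but signals weakly, and so limits the ligand that reaches Kdr, while Vegfb and Pgf bind Flt1 and not Kdr. Angpt1, made by cells around vessels, activates Tek on endothelium and steadies the vessel wall, and Angpt2, released by endothelium itself, often opposes it. Apelin is a peptide made by sprouting endothelial cells that acts on the G protein-coupled receptor Aplnr, which is found on endothelium and heart muscle and in the adult heart raises contractile force.

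Gene counts per library ranged from 13857909 to 14683416 in KO MI hearts, 10871418 to 17223580 in WT MI hearts, 12449879 to 15501352 in KO sham hearts and 10711442 to 13504923 in WT sham hearts. Levels are given as CPM, gene counts scaled to a common library total, after TMM scaling, a correction for differences in library composition. Chrna7 had 2 to 4 reads per library in KO MI hearts, 0 to 2 in WT MI hearts, 0 to 2 in KO sham hearts and 0 to 2 in WT sham hearts, too few to check the genotype labels. The defining endothelial transcripts Pecam1 (278 to 327 CPM over the 16 samples), Cdh5 (316 to 507 CPM) and Tie1 (237 to 361 CPM) and the heart muscle transcript Tnnt2 (8497 to 11010 CPM) were present in every library. The KO sham libraries stood apart on the first principal component of expression, which held 25.5% of the variance, with scores of 27.9 to 31.6, against no score above 0.973 in the other groups. KO MI replicate 1, KO sham replicate 2 and WT sham replicate 1 had almost no Y-linked reads, and KO MI replicate 4, WT MI replicate 2 and WT sham replicate 2 stood apart on the fourth component. Because whole ventricles were sequenced, fewer cells of a type and less RNA per cell cannot be told apart.

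Stretches of the promoters of the receptors Kdr, Flt1 and Tek and of the ligand Apln are shown because most of the differences described below fell on these genes and on Aplnr. RefSeq (GRCm38.p6) had start sites for 7 of the 10 genes, Aplnr not among them. Each line is the 250 bases before the start site on the gene's own strand, 5′ to 3′, and capitals mark GGAA or its reverse complement TTCC, the core of the sites bound by ETS transcription factors, many of which act in endothelium.
Kdr: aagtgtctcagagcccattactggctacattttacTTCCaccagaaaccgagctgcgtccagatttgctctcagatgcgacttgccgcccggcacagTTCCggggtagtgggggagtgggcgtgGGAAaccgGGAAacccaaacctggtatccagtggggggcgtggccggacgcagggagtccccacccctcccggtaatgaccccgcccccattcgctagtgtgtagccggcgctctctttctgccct
Flt1: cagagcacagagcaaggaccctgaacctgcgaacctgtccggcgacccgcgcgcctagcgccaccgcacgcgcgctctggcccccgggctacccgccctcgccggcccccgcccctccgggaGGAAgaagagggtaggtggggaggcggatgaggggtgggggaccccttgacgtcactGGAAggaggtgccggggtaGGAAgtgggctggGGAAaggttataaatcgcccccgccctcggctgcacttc
Tek: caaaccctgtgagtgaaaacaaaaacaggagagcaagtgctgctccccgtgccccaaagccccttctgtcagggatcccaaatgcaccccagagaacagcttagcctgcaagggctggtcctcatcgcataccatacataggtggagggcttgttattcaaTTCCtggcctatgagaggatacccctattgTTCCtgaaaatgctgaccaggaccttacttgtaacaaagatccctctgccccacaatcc
Apln: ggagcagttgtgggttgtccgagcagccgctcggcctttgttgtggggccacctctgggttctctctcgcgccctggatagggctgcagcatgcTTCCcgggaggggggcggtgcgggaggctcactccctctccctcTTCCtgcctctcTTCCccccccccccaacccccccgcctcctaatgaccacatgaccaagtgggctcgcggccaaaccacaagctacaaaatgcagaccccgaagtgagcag
The Kdr stretch lies at chr5:75978456-75978705 on the minus strand and the Flt1 stretch at chr5:147726012-147726261 on the minus strand. The Tek stretch lies at chr4:94739039-94739288 on the plus strand, and the Apln stretch at chrX:48034854-48035103 on the minus strand. GGAA was matched 4 times in the Kdr stretch, 4 times in Flt1, 2 times in Tek and 3 times in Apln, on both strands together, against a median of 3 in the 32851 promoter windows of the same length, 93.4% of which held it. ACGTG, a core of the sites bound by hypoxia-inducible factors, was in none of the 4 stretches and in 16.6% of all windows. The other form of that core, GCGTG, was matched 2 times in Kdr and 1 time in Flt1, and 28.2% of all windows held it. Both were searched on both strands. These matches describe letters only.

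Apelin and its receptor took 7 of the 9 calls made for the 10 genes over the 5 comparisons, and they moved in opposite directions. Aplnr was highest in KO sham and lowest in WT sham, Apln was lowest in KO sham and highest in WT sham, and the means of both infarcted groups lay between.

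Apln, the ligand, stood at 11.3, 16.5, 15.4 and 16.9 CPM in KO MI hearts, 13.4, 19.5, 23.4 and 16.2 CPM in WT MI hearts, 7.68, 7.79, 12.3 and 10.6 CPM in KO sham hearts, and 21.7, 21.2, 26.5 and 25.2 CPM in WT sham hearts. These values rested on 106 to 327 reads per library. No KO sham sample reached the lowest WT sham sample, while KO MI and WT MI overlapped each other. In KO sham against WT sham, Apln fell by 1.30 on the log2 scale (SE 0.18, n = 4 per group, edgeR quasi-likelihood adjusted p = 0.000113), which is 2.47 times lower. This comparison called 15.3% of all genes tested, 7.6% higher and 7.74% lower in KO sham, and Apln ranked 54 of the 13412 genes by p. Apln rose 1.57 times in KO MI against KO sham (log2 0.65 ± 0.18, SE, n = 4 per group, edgeR adjusted p = 0.0185) although 1 KO MI sample lay within the KO sham range. That comparison called 16.6% of all genes tested, 8.54% higher and 8.02% lower in KO MI. The call for Apln ended, with log2 fold changes of 0.55 to 0.60 and an adjusted p of up to 0.0693, without KO MI replicate 2, KO sham replicate 1 or KO sham replicate 2, each left out alone. In WT MI against WT sham, Apln had a log2 fold change of -0.38 ± 0.17 and did not pass (SE, n = 4 per group, edgeR adjusted p = 0.292).

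Aplnr, the receptor, stood at 134, 80.4, 104 and 68.7 CPM in KO MI hearts, 123, 81.9, 98.4 and 113 CPM in WT MI hearts, 153, 171, 162 and 139 CPM in KO sham hearts, and 59.4, 62.7, 63.2 and 74.2 CPM in WT sham hearts. All KO sham samples lay above every sample of the other groups, and all WT MI samples lay above every WT sham sample. Aplnr rose 2.41 times in KO sham against WT sham (log2 1.27 ± 0.16, SE, n = 4 per group, edgeR adjusted p = 7.82e-05), rank 47 of all genes tested by p. After infarction the receptor went opposite ways in the genotypes. It fell by 0.69 on the log2 scale in KO MI against KO sham (SE 0.16, n = 4 per group, edgeR adjusted p = 0.00784), which is 1.62 times lower. It rose 1.6 times in WT MI against WT sham (log2 0.68 ± 0.16, SE, n = 4 per group, edgeR adjusted p = 0.0328), in a comparison that called 2.25% of all genes tested, 1.32% higher and 0.932% lower in WT MI. The call in WT ended, with log2 fold changes of 0.58 to 0.66 and an adjusted p of up to 0.139, without WT MI replicate 1, WT MI replicate 4, WT sham replicate 1, WT sham replicate 2 or WT sham replicate 3, each left out alone.

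The interaction tests these responses against each other, as the infarction response in KO minus that in WT, and both genes passed it. It called 2.74% of all genes tested, 1.65% positive and 1.1% negative. For Aplnr the difference of the responses was -1.37 ± 0.23 on the log2 scale (SE, n = 4 per group, edgeR adjusted p = 0.00397), rank 31 of all genes tested by p. For Apln it was 1.03 ± 0.25 (edgeR adjusted p = 0.0276), a call that ended in 7 of the 16 fits that left out 1 library, namely KO MI replicates 2 and 3, WT MI replicates 1 and 4, KO sham replicates 1 and 2 and WT sham replicate 3. In those 7 fits its log2 value was 0.92 to 1.02, with an adjusted p of 0.0516 to 0.072. The KO sham and WT sham samples enter the genotype comparison, the infarction comparisons and the interaction, so these results share samples and are not independent.

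After infarction the genotypes were not told apart in the apelin genes. In KO MI against WT MI the log2 fold change was -0.10 for Aplnr (95% interval -0.44 to 0.23) and -0.27 for Apln (95% interval -0.63 to 0.09), with edgeR adjusted p of 0.981 and 0.976. In KO MI the sample with the highest Aplnr had the lowest Apln and the sample with the lowest Aplnr the highest Apln. In WT MI the sample with the highest Aplnr likewise had the lowest Apln, but the sample with the lowest Aplnr did not have the highest Apln. Neither held within KO sham or within WT sham. The ratio of Apln to Aplnr CPM was 0.171 ± 0.0704 in KO MI hearts, 0.182 ± 0.0659 in WT MI hearts, 0.062 ± 0.0164 in KO sham hearts and 0.366 ± 0.0376 in WT sham hearts (SD, n = 4 each). Over the 16 samples, Apln and Aplnr had a Pearson r of -0.87 in log2 CPM, a description that shares library totals and holds the differences between the groups.

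**Figure D1:**
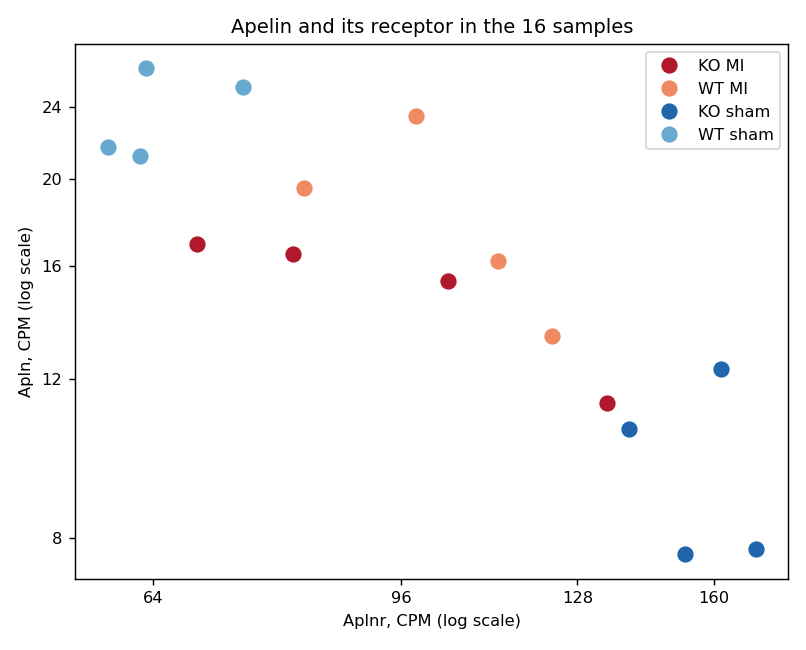
Apln (vertical axis, CPM, log scale) against Aplnr (horizontal axis, CPM, log scale) in the 16 samples, 1 point per sample, coloured by group. The KO sham samples lie at the lower right (Aplnr 139 to 171 CPM, Apln 7.68 to 12.3 CPM). The WT sham samples lie at the upper left (Aplnr 59.4 to 74.2 CPM, Apln 21.2 to 26.5 CPM). Most KO MI and WT MI samples lie between. KO MI replicate 4 (Aplnr 68.7 CPM) and WT MI replicate 3 (Apln 23.4 CPM) fall within the WT sham range of that gene. KO MI replicate 1 (Apln 11.3 CPM) falls within the KO sham range.

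Among the ligands of the VEGF receptors, none passed in any of the 5 comparisons. Vegfa stood at 166 to 195 CPM in KO MI hearts, 169 to 221 CPM in WT MI hearts, 188 to 205 CPM in KO sham hearts and 167 to 196 CPM in WT sham hearts, and the ranges of the groups overlapped. Its log2 fold changes were -0.13 ± 0.09 in KO MI against WT MI, 0.12 ± 0.09 in KO sham against WT sham, -0.12 ± 0.09 in KO MI against KO sham and 0.13 ± 0.09 in WT MI against WT sham (SE, n = 4 per group). The widest of their 95% intervals allowed a log2 change of no more than 0.31 in either direction. Vegfb stood at 171 ± 21.5 CPM in KO MI hearts, 189 ± 20.9 CPM in WT MI hearts, 178 ± 8.1 CPM in KO sham hearts and 189 ± 28.1 CPM in WT sham hearts (SD, n = 4 each). Pgf, best known from the placenta, was the scarcest of the 10 genes at 24 to 57 reads per library. It stood at 3.42 ± 0.282 CPM in KO MI hearts, 3 ± 0.6 CPM in WT MI hearts, 2.53 ± 0.542 CPM in KO sham hearts and 3.24 ± 0.313 CPM in WT sham hearts (SD, n = 4 each). Its log2 fold change in KO MI against KO sham was 0.43 ± 0.19 (SE, n = 4 per group, edgeR adjusted p = 0.125), which passed with limma voom alone among the alternatives.

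The ligands stood far apart in level. Per kilobase of exon (GENCODE M21), WT sham held 118 ± 17.5 CPM of Vegfb, 41.6 ± 3.21 CPM of Vegfa, 7.51 ± 0.827 CPM of Apln, 2.11 ± 0.836 CPM of Angpt1, 1.65 ± 0.159 CPM of Angpt2 and 1.116 ± 0.108 CPM of Pgf (SD, n = 4). On the same scale the receptors stood at 26.7 ± 1.2 CPM for Kdr, 24.4 ± 1.49 CPM for Tek, 17.5 ± 1.74 CPM for Aplnr and 4.69 ± 0.554 CPM for Flt1. The spreads of Kdr and Tek overlapped, as did those of Angpt1 and Angpt2. In KO sham the per-kilobase level of Aplnr (42.3 ± 3.7 CPM) lay above those of Kdr (32.2 ± 1.46 CPM) and Tek (30 ± 1.51 CPM), the order opposite to that in WT sham.

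**Figure D2:**
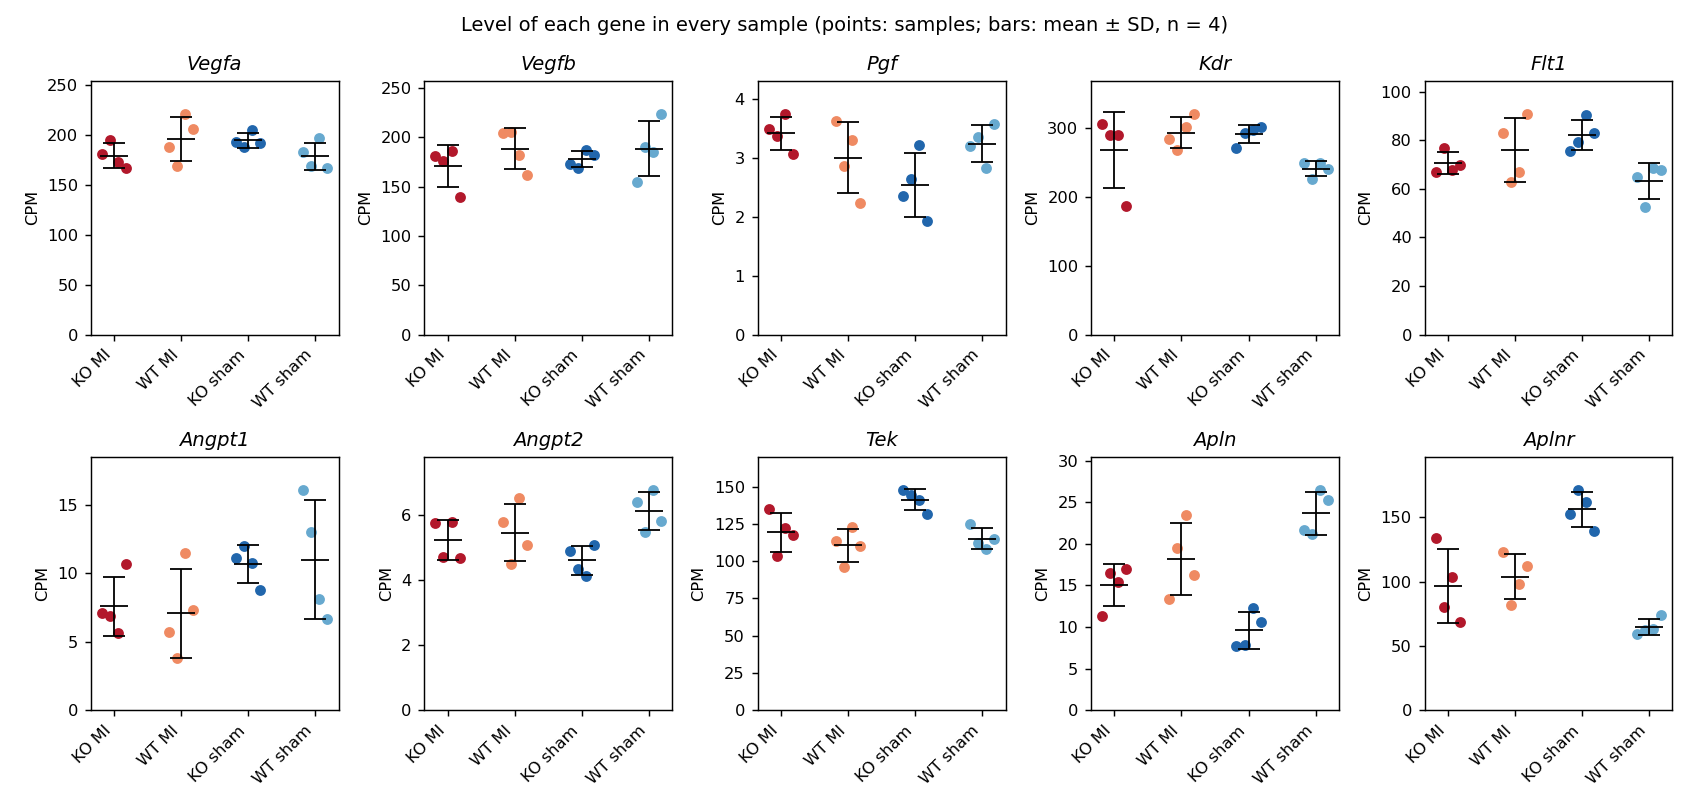
CPM (vertical axis, from 0) of each of the 10 genes in the KO MI, WT MI, KO sham and WT sham groups, with 1 point per sample and bars for the mean ± SD (n = 4). By the means, Aplnr is highest in KO sham and lowest in WT sham and Apln the reverse, while WT MI lies above KO MI for both. The Vegfa and Vegfb groups overlap throughout.

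Of the VEGF receptors, Flt1 was called higher in KO sham than in WT sham, and Kdr pointed the same way without passing. Flt1, the receptor that limits free Vegfa, stood at 75.8, 79.5, 90.3 and 83.2 CPM in KO sham and at 64.9, 52.4, 68.4 and 67.8 CPM in WT sham. Every KO sham sample exceeded every WT sham sample, and Flt1 rose 1.3 times (log2 0.38 ± 0.11, SE, n = 4 per group, edgeR adjusted p = 0.0258). Kdr, the main signalling receptor, stood at 272, 293, 296 and 302 CPM in KO sham and at 249, 226, 248 and 239.9 CPM in WT sham, again with no overlap. Its log2 fold change was 0.27 ± 0.11 (SE, n = 4 per group, edgeR adjusted p = 0.108), and it was called without the 3 libraries apart on the fourth component (log2 0.25, adjusted p = 0.0105), with limma voom (log2 0.24, adjusted p = 0.0103) and with the sham groups alone (log2 0.27, adjusted p = 0.00959). In WT MI against WT sham, Kdr also stood higher in every sample, at 268 to 320.1 CPM after infarction and 226 to 249 CPM after sham, with a log2 fold change of 0.28 ± 0.11 that did not pass (SE, n = 4 per group, edgeR adjusted p = 0.231) and passed without the same 3 libraries (adjusted p = 0.017) and with limma voom (adjusted p = 0.0428). For Flt1 the same comparison gave 0.26 ± 0.11 (edgeR adjusted p = 0.26) with overlapping samples. Set against KO sham, the KO MI values were -0.12 ± 0.11 for Kdr and -0.22 ± 0.11 for Flt1, with edgeR adjusted p of 0.502 and 0.17. The interaction was -0.40 ± 0.16 for Kdr and -0.48 ± 0.15 for Flt1, and neither passed (SE, edgeR adjusted p = 0.183 and 0.101). The call for Flt1 in KO sham against WT sham ended without KO sham replicates 2, 3 or 4 or WT sham replicate 2, each left out alone (log2 0.29 to 0.41 over the 8 fits). Without WT MI replicate 2 the interaction for Flt1 was called (log2 -0.56, edgeR adjusted p = 0.0298), as it was with limma voom (adjusted p = 0.0222) and without the 3 libraries apart on the fourth component (adjusted p = 0.0208). The ratio of Flt1 to Kdr CPM was 0.274 ± 0.0701 in KO MI hearts, 0.258 ± 0.0343 in WT MI hearts, 0.283 ± 0.015 in KO sham hearts and 0.263 ± 0.0224 in WT sham hearts (SD, n = 4 each), and all 4 ranges overlapped.

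In the angiopoietin system the receptor was called and the ligands were not. Tek stood at 148, 145, 141 and 131 CPM in KO sham and at 125, 112, 108 and 115 CPM in WT sham. The groups did not overlap, and Tek rose 1.23 times (log2 0.29 ± 0.09, SE, n = 4 per group, edgeR adjusted p = 0.03). This call ended in 6 of the 8 fits that left out 1 library, with KO sham replicate 4 and WT sham replicate 1 the exceptions (log2 0.27 to 0.34). In KO MI, Tek stood at 135, 103, 122 and 117 CPM, and its log2 fold change against KO sham was -0.24 ± 0.09 (SE, n = 4 per group, edgeR adjusted p = 0.0649). Without KO MI replicate 1, whose Tek level was the highest of the group, it was called lower (log2 -0.31, edgeR adjusted p = 0.0303). It was also called with DESeq2 (adjusted p = 0.0405), limma voom (adjusted p = 0.014), the replicate block (adjusted p = 0.0431) and without the 3 libraries apart on the fourth component (adjusted p = 0.0382). WT MI, at 114, 96.3, 123 and 110.0 CPM, overlapped WT sham (log2 -0.06 ± 0.09).

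Angpt2, the ligand that loosens vessels, stood at 4.88, 4.34, 4.11 and 5.05 CPM in KO sham and at 6.4, 5.46, 6.76 and 5.8 CPM in WT sham. The groups did not overlap, yet the log2 fold change of -0.41 ± 0.15 did not pass (SE, n = 4 per group, edgeR adjusted p = 0.073). It passed without the 3 libraries apart on the fourth component (log2 -0.46, adjusted p = 0.0416) and with limma voom (log2 -0.47, adjusted p = 0.0117). Angpt2 lies within Mcph1 on the opposite strand, with 0 exon bases shared in GENCODE M21. Angpt1, the activating ligand, shares 737 exon bases with the antisense gene Gm17473, whose reads cannot be told apart without strand. It spread widely within groups, at 7.57 ± 2.15 CPM in KO MI hearts, 7.06 ± 3.25 CPM in WT MI hearts, 10.7 ± 1.37 CPM in KO sham hearts and 10.98 ± 4.35 CPM in WT sham hearts (SD, n = 4 each). Its log2 fold change was -0.50 ± 0.29 in KO MI against KO sham and -0.67 ± 0.30 in WT MI against WT sham, and neither passed (SE, n = 4 per group, edgeR adjusted p = 0.257 and 0.299). The KO value passed with limma voom (log2 -0.74, adjusted p = 0.0144). The ratio of Angpt2 to Angpt1 CPM was 0.738 ± 0.244 in KO MI hearts, 0.862 ± 0.279 in WT MI hearts, 0.44 ± 0.0975 in KO sham hearts and 0.63 ± 0.256 in WT sham hearts (SD, n = 4 each), with overlapping samples.

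Counted over the 10 genes, 4 were called in KO sham against WT sham (Aplnr, Flt1 and Tek higher, Apln lower), where 15.3% of all genes were called. For KO MI against KO sham 2 were called (Apln higher, Aplnr lower), where 16.6% of all genes were, and in WT MI against WT sham 1 was (Aplnr higher), where 2.25% of all genes were. With limma voom, which called 4796 of the 13412 genes tested in KO MI against KO sham, 6 of the 10 were called there. The additions were Flt1, Tek, Angpt1 and Pgf. None was called in KO MI against WT MI, where edgeR called 0.0149% of all genes (0.00746% higher and 0.00746% lower), no member had an unadjusted p under 0.05, and DESeq2 and limma voom called no member either. The groups did not overlap for 6 of the 10 in KO sham against WT sham (4 higher and 2 lower), where 26.3% of all genes tested had groups apart, 14% higher and 12.3% lower. The count was 1 of 10 in KO MI against KO sham (Aplnr, lower), where it was 23.9% of all genes, 11.4% higher and 12.5% lower. It was 2 of 10 in WT MI against WT sham (Kdr and Aplnr, higher), where it was 8.22% of all genes, 4.5% higher and 3.71% lower, and 0 of 10 in KO MI against WT MI, where it was 2.11%, 1.09% higher and 1.02% lower. The median log2 fold change of the 10 was 0.04 in KO sham against WT sham, -0.12 in KO MI against KO sham, -0.03 in WT MI against WT sham and -0.10 in KO MI against WT MI, beside -0.01, 0.01, -0.01 and 0.00 over all genes tested.

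**Figure D3:**
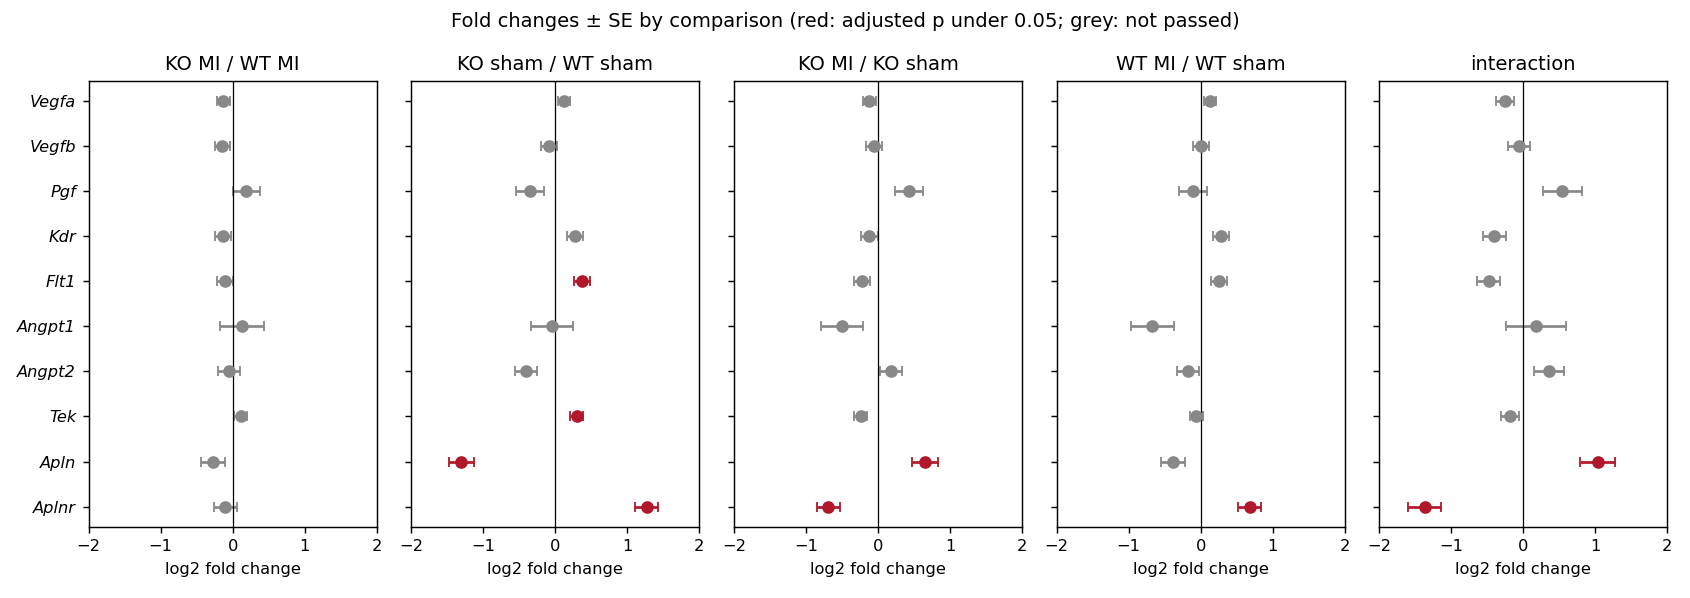
Log2 fold change (horizontal axis) of each of the 10 genes with its SE, by comparison, with red points for an adjusted p under 0.05 and grey points for genes that did not pass. The 4 genes called in KO sham over WT sham and the opposite signs of Apln and Aplnr in 4 of the 5 panels can be read from it.

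Endothelial transcripts other than these genes also differed between the sham groups. An endothelial index, the mean log2 CPM of Pecam1, Cdh5 and Tie1, which encode surface proteins of endothelium, was 8.55 ± 0.0474 in KO sham and 8.30 ± 0.0899 in WT sham (SD, n = 4 each, two-sided exact permutation p = 0.0286, the smallest that 4 against 4 samples allow). The 3 genes are part of a list of 24 endothelial genes, of which 4 were called higher and 3 lower in KO sham (median log2 0.08), Cldn5 (log2 -0.66) and S1pr1 (log2 -0.51) among the lower, so the index does not stand for the whole list. Of its genes Tie1 passed on its own, while Cdh5 had a log2 fold change of 0.25 ± 0.10 and Pecam1 of 0.11 ± 0.07 (SE, n = 4 per group, edgeR adjusted p = 0.109 and 0.29). The index was 8.37 ± 0.175 in KO MI hearts and 8.55 ± 0.0474 in KO sham hearts (exact permutation p = 0.0857, n = 4 each), and 8.38 ± 0.07 in WT MI hearts and 8.30 ± 0.0899 in WT sham hearts (exact permutation p = 0.286, n = 4 each). With this index as a covariate, Aplnr in KO sham against WT sham had a log2 fold change of 0.69 (adjusted p = 0.00112) and Apln of -1.06 (adjusted p = 0.0094), and both remained called. The calls of Flt1 (adjusted p = 0.114) and Tek (adjusted p = 0.443) ended. For Flt1 the log2 fold change was 0.37 ± 0.15 with the covariate and 0.38 ± 0.11 without it (SE), so its size held while its SE grew. For Tek it was 0.13 ± 0.11 with the covariate and 0.29 ± 0.09 without it, and the value for Kdr with it was 0.03. For KO MI against KO sham the covariate gave Aplnr a log2 fold change of -0.31 (adjusted p = 0.0437) and Apln of 0.46, no longer called (adjusted p = 0.148). The interaction with the covariate was -0.81 for Aplnr (adjusted p = 0.00589) and 0.78 for Apln (adjusted p = 0.173). Flt1 and Tek also lost their calls in KO sham against WT sham without the 3 libraries with almost no Y-linked reads, where the log2 fold changes were 0.40 and 0.32 (adjusted p = 0.0724 and 0.0536). They lost them as well when fold changes were corrected for length and GC content, at 0.24 and 0.21 (adjusted p = 0.065 and 0.0851). Apln and Aplnr were called under both.

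Markers of other cell types moved with the sham comparison too. The summed level of 14 epicardium and mesothelium genes, of the sheet that covers the heart, was 120.4 to 130.5 CPM in KO sham and 219 to 276 CPM in WT sham, and 13 of the 14 were called lower. The summed level of the 8 tested red cell genes and 1 untested one was 998 to 1414 CPM in KO sham and 2979 to 4745 CPM in WT sham, with 8 of 8 tested called lower. The summed level of 15 heart muscle genes was 94210 to 97460 CPM in KO sham and 102100 to 114700 CPM in WT sham, with no overlap, and 3 of the 15 were called lower and none higher. Among these were Nppa, the natriuretic peptide of stressed heart muscle, 5.04 times lower (adjusted p = 0.0231), and Myh7, a slow myosin, 1.64 times lower (adjusted p = 0.00936). Of the 15 heart muscle genes, 5 had a positive log2 fold change in KO sham against WT sham, none of them called. Atp2a2 stood at 11180 to 11720 CPM in KO sham and 9204 to 10210 CPM in WT sham. No listed marker was at 0 over all samples. In KO MI against KO sham, 12 of the 14 epicardium and mesothelium genes were called higher (157 to 253 CPM in KO MI, 120.4 to 130.5 CPM in KO sham), as were 11 of 15 tested leukocyte genes (263 to 602 CPM in KO MI, 177 to 201 CPM in KO sham). In WT MI against WT sham, 4 of 15 leukocyte genes were called higher (219 to 388 CPM in WT MI, 144 to 175 CPM in WT sham). The part of these in the values of Apln, Aplnr, Flt1 and Tek was not tested.

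**Figure D4:**
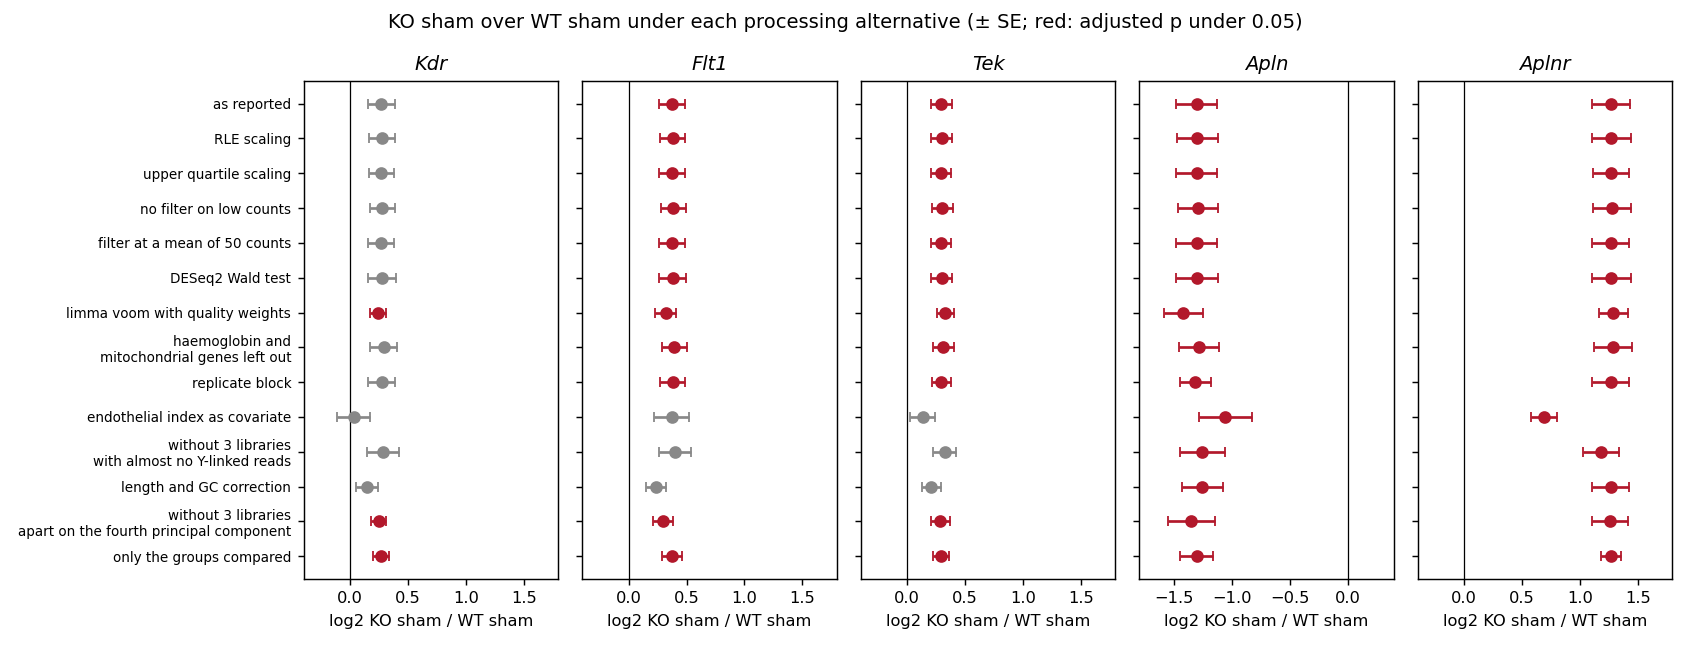
Log2 fold change of KO sham over WT sham (horizontal axis, ± SE) for Kdr, Flt1, Tek, Apln and Aplnr as reported and under each processing alternative (rows), with red points for an adjusted p under 0.05. Apln and Aplnr were called in every row, while Flt1 and Tek lost their calls in 3, including the row with the endothelial index.

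A list of other ligands, receptors and partners of the same systems also held Acvrl1, a receptor gene outside them. Its genes called in the sham comparison were all higher in KO sham. Of 23 listed, 20 were tested, and 5 rose and none fell in KO sham against WT sham (median log2 0.23, against -0.01 over all genes), where 7.6% of all genes rose and 7.74% fell. Among them Tie1, the partner receptor of Tek, rose 1.31 times (adjusted p = 0.0199), Ptprb, the phosphatase that restrains Tek, rose 1.48 times (adjusted p = 0.0186), Acvrl1, an endothelial receptor for bone morphogenetic proteins, rose 1.29 times (adjusted p = 0.0105), and Mmrn2, an endothelial matrix protein, rose 1.24 times (adjusted p = 0.0166). Of these 20, 1 rose and 2 fell in KO MI against KO sham, near the 16.6% of all genes called there. Ptprb was 1.38 times lower (adjusted p = 0.045), Angptl2, a secreted angiopoietin-like protein, was 1.18 times lower (adjusted p = 0.0302), and Vegfd, a ligand of the lymphatic VEGF receptor, rose 1.63 times (adjusted p = 0.0389). In WT MI against WT sham Acvrl1 rose 1.33 times (adjusted p = 0.0189) and no other of the 20 was called. In the interaction and in KO MI against WT MI none of the 20 was called. With the endothelial list, which shares Tie1, Mmrn2 and Eng with these, 4 of 24 rose and 3 fell in KO sham against WT sham (median log2 0.08). There the tight junction gene Cldn5 was 1.58 times lower (adjusted p = 0.000511) and the lipid receptor S1pr1 1.42 times lower (adjusted p = 0.000644), while the adhesion receptor Adgrf5 rose 1.44 times (adjusted p = 0.000344).

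Genes listed for VEGF receptor signalling and endothelial targets moved both ways. Of 30, 3 rose and 4 fell in KO sham against WT sham (median log2 0.00), where 7.6% of all genes rose and 7.74% fell. The phosphatase gene Dusp5 was 2.91 times lower (adjusted p = 1.56e-05), the flow-responsive transcription factors Klf4 and Klf2 were 1.65 and 1.74 times lower (adjusted p = 0.00201 and 0.0123), and E-selectin (Sele), which captures leukocytes on endothelium, was 1.76 times lower (adjusted p = 0.0138). After infarction in KO, where 16.6% of all genes were called, 3 rose and 2 fell, among them Dusp5, which rose 1.74 times (adjusted p = 0.00589), and Klf2, which rose 1.86 times (adjusted p = 0.00632). The signalling gene Plcg1 went the other way, 1.27 times lower in KO MI than in KO sham (adjusted p = 0.034). It stood at 165 ± 9.11 CPM in KO sham and 126.5 ± 13.4 CPM in WT sham (SD, n = 4 each). None of the 30 was called in WT MI against WT sham or in KO MI against WT MI. In the interaction 1 passed, Dusp5 (log2 1.29 ± 0.24, SE, adjusted p = 0.00658).

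Among 18 genes of endothelial tip cells, the leading cells of sprouts, 3 rose and 3 fell in KO sham against WT sham, where 15.3% of all genes were called. Cxcr4, a chemokine receptor of tip cells and leukocytes, stood at 9.57 ± 1.7 CPM in KO MI hearts, 9.69 ± 1.57 CPM in WT MI hearts, 11.3 ± 0.902 CPM in KO sham hearts and 5.06 ± 1.39 CPM in WT sham hearts (SD, n = 4 each). Like Aplnr, it rose in KO sham against WT sham (2.23 times, adjusted p = 0.000349) and in WT MI against WT sham (1.9 times, adjusted p = 0.00982), and its interaction was negative (log2 -1.16 ± 0.25, SE, adjusted p = 0.0149). Unlike Aplnr, Cxcr4 was not called in KO MI against KO sham. Plaur, the urokinase receptor, had the opposite signs, at 8.99 ± 1.04 CPM in KO MI hearts, 6.7 ± 1.46 CPM in WT MI hearts, 3.72 ± 0.731 CPM in KO sham hearts and 12.2 ± 2.49 CPM in WT sham hearts (SD, n = 4 each, interaction log2 2.12 ± 0.26, adjusted p = 0.000192).

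Hypoxia-regulated genes, of which Vegfa is a textbook member, were called where Vegfa was not. Of 29 genes in the list, which leaves Vegfa out, 4 rose and none fell in WT MI against WT sham, and 8 rose and 2 fell in KO MI against KO sham. Over all genes tested, 1.32% rose and 0.932% fell in WT MI against WT sham, and 8.54% rose and 8.02% fell in KO MI against KO sham. Ankrd37, a target of hypoxia-inducible factors, rose 2.32 times in KO MI against KO sham (adjusted p = 0.000967) and 2.23 times in WT MI against WT sham (adjusted p = 0.0052). In KO sham against WT sham 5 rose and 6 fell, where 7.6% of all genes rose and 7.74% fell. Among those that fell, Eno1 was 1.56 times lower (adjusted p = 0.0016) and Ldha 1.36 times lower (adjusted p = 0.00481). Epas1, the hypoxia-inducible factor subunit prominent in endothelium, stood at 141 ± 15.8 CPM in KO MI hearts, 158 ± 26.3 CPM in WT MI hearts, 224 ± 17.8 CPM in KO sham hearts and 141 ± 7.86 CPM in WT sham hearts (SD, n = 4 each). It rose 1.59 times in KO sham against WT sham (adjusted p = 0.000449) and was 1.59 times lower in KO MI than in KO sham (adjusted p = 0.000646), with an interaction of -0.83 ± 0.15 (SE, adjusted p = 0.00593). Egln1, the oxygen sensor that marks these factors for breakdown, rose 1.28 times in KO sham against WT sham (adjusted p = 0.00195) and 1.24 times in WT MI against WT sham (adjusted p = 0.0195). Hif1a, the ubiquitous subunit, had log2 fold changes of -0.11 ± 0.15 in KO sham against WT sham, -0.02 ± 0.15 in KO MI against KO sham and -0.27 ± 0.15 in WT MI against WT sham, none of which passed.

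The genes whose pattern over the 16 samples was most like each receptor or ligand were named by Pearson r of log2 CPM, with no test. The highest r were those of Sema7a (0.96), Ccdc88c (0.94) and Lims2 (0.93) with Aplnr, and of Bex4 (0.93), Frmd5 (0.92) and Lcmt2 (0.91) with Apln. For Tek they were Pcmtd2 (0.92), Hmcn2 (0.91) and Scara5 (0.91), and for Kdr they were Prob1 (0.94), Tubgcp6 (0.92) and Pik3c2b (0.92). For Flt1, Nhs was the nearest (0.87), and for Vegfa, B3galnt2 (0.87). Among the 10 genes themselves, Aplnr was most like Tek (0.70), Kdr (0.69) and Flt1 (0.68), the endothelial receptors, and Apln least like Aplnr. These values share library totals and the separation of the KO sham group.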

How the data were processed

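Ventricular mRNA of 16 samples was sequenced. The submitters' processing notes name HISAT2 2.2.1, cutadapt 3.4, bcl2fastq 2.17 and HTSeq 0.13.5 beside DESeq2 and FastQC, and build GRCm39; order, strand setting and annotation release are not given in the sources used here. The authors deposited unnormalised HTSeq counts, the reads assigned to each Ensembl gene. Reads in no annotated feature took 23.7 to 28.3% of the reads counted, and reads in more than 1 gene 1.56 to 2.08%; these stayed out of library totals. Strand-ambiguous reads of overlapping genes cannot be told apart.

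Names, exon lengths and overlaps came from GENCODE M21 (GRCm38), which gave a symbol to 22362 of 22468 genes, and promoter windows from RefSeq GRCm38.p6. In R 4.3.3 with edgeR 4.0.16, counts were TMM-scaled, filtered with filterByExpr and fitted by a robust quasi-likelihood model with a mean for each of 4 groups. Adjusted p-values are Benjamini-Hochberg values over the 13412 genes tested, two-sided, with a threshold of 0.05. Adjusted p in the report are from this fit unless an alternative is named. SEs follow from the F statistic. The steps were tested on simulated data for KO sham against WT sham alone, with changes larger than those of Kdr, Flt1 and Tek. The infarction comparisons and the interaction were not simulated. Log2 CPM used a prior count of 2. A floor of 3 counts limits detection; every member lay above it in every library.

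The 10 genes and the 17 gene lists (247 of 249 symbols found; Aldoa matched 2 genes) were chosen with earlier results of these data known. From each list described, the text names up to 4 called genes with the smallest p per comparison, and always Pecam1, Cdh5, Tie1, Hif1a and Epas1. The nearest genes in pattern were the 3 with the highest r among tested genes averaging 2 CPM or more; not all are printed. Alternatives were RLE and upper quartile scaling, no filter or a mean of 50 counts, DESeq2 1.42.0, limma 3.58.1 voom, haemoglobin and mitochondrial genes left out, a replicate block, the endothelial index as a covariate, the groups compared alone, a length and GC correction, and leaving out libraries.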

Additional observations from a re-analysis of the deposited data

Results flagged for a closer look

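The responses of Apln and Aplnr to infarction differed between the genotypes by a test of the difference itself. The interaction was 1.03 for Apln (edgeR adjusted p = 0.0276) and -1.37 for Aplnr (edgeR adjusted p = 0.00397) on the log2 scale, KO response minus WT response. Apln was higher in KO MI hearts than in KO sham hearts and lower in WT MI hearts than in WT sham hearts by the means, Aplnr the reverse. The fall of Apln in WT did not pass (edgeR adjusted p = 0.292). Its interaction call ended in 7 of the 16 fits that left out 1 library and with the endothelial index (0.78, adjusted p = 0.173). The interaction also holds the difference between the sham groups, and neither gene was called in KO MI against WT MI.

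Kdr in KO MI replicate 4 stood far from the others of its group, at 187 CPM against 289 to 306 CPM in the other 3 samples. It was the only one of 40 combinations of gene and group to do so, and chance sets apart about 1 in 20. The same library had 17.4% mitochondrially encoded reads, against 9.79 to 10.6% in the other 3 KO MI samples, and the lowest summed endothelial level of the group, 2334 against 2567 to 2790 CPM. Its summed level of the listed capillary genes was the highest of the group, 2633 against 2101 to 2251 CPM. The heart muscle sum was the lowest, 67920 against 91130 to 96610 CPM, and the leukocyte sum the highest, 602 against 263 to 398.5 CPM. Without this library the log2 fold change of Kdr in KO MI against WT MI was 0.0067, beside -0.13 with it.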

How the results depend on the processing

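Scaling (RLE, upper quartile), either filter on low counts, DESeq2, the omission of haemoglobin and mitochondrial genes and a fit of the compared groups alone kept the number of the 10 genes called within 1.5 times the reported number in each comparison fitted. That number was 2 with limma voom in WT MI against WT sham (reported 1) and 6 in KO MI against KO sham (reported 2). With the endothelial index it was 1 in KO MI against KO sham, 2 in KO sham against WT sham (reported 4) and 1 in the interaction (reported 2). Without the 3 libraries with almost no Y-linked reads (Y-low), or with the length and GC correction, it was 2 in KO sham against WT sham. Without the 3 libraries apart on the fourth component, an alternative chosen after seeing the data, it was 2 in WT MI against WT sham. Leaving out 1 library gave 0 to 1 in WT MI against WT sham, 1 to 3 in KO MI against KO sham, 2 to 4 in KO sham against WT sham, 0 in KO MI against WT MI and 1 to 3 in the interaction. Aplnr and Apln in KO sham against WT sham were called in all of these fits. The cause of these shifts was not tested. The 24 to 57 reads of Pgf and 55 to 88 of Angpt2 per library limit what could be detected for both.

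Counts over all genes moved more. They were 302 in WT MI against WT sham, 511 with DESeq2, 495 with voom, 166 without the Y-low libraries, 482 with the length and GC correction, 558 without the fourth-component libraries, 185 with the compared groups alone, and 86 without WT MI replicate 1. In KO MI against KO sham they were 2220, 4796 with voom, 1475 with the endothelial index, 1291 without the Y-low libraries, 3958 without the fourth-component libraries and 1230 without KO MI replicate 2. In KO sham against WT sham they were 2057, 3901 with voom, 1361 with the index, 1237 without the Y-low libraries, 3211 with the compared groups alone and 1298 without KO sham replicate 4. In KO MI against WT MI they were 2, 10 with DESeq2, 11 without the fourth-component libraries, 1 in 3 other fits and 1 to 4 without 1 library. In the interaction they were 368, 628 with DESeq2, 1524 with voom, 158 with the index, 217 without the Y-low libraries, 1432 without the fourth-component libraries and 178 without KO sham replicate 1 and 817 without WT MI replicate 2.

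Replicate numbers did not pair the samples, since 4 of 24 same-numbered pairs had a correlation over 0.1 (range -0.0968 to 0.475) and 5 of 16 samples correlated best with their own number. With the replicate block 1, 3, 4, 0 and 2 of the 10 genes were called in WT MI against WT sham, KO MI against KO sham, KO sham against WT sham, KO MI against WT MI and the interaction, the addition being Tek in KO MI against KO sham (log2 -0.25, adjusted p = 0.0431). The block gave 297, 2413, 2202, 3 and 350 calls over all genes.

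Signs turned only for log2 values that passed in neither fit. With voom, Vegfb was -0.0096 and Tek 0.0025 in WT MI against WT sham, Vegfb 0.028 in KO MI against KO sham, Angpt1 0.178 in KO sham against WT sham and -0.121 in KO MI against WT MI, and Vegfb 0.037 and Angpt1 -0.298 in the interaction. With the block, Vegfb was -0.0016 in WT MI against WT sham. With the endothelial index, Vegfb was -0.053 in WT MI against WT sham, Kdr 0.042 and Vegfb 0.095 in KO MI against KO sham, Angpt1 0.27 in KO sham against WT sham, and Vegfb 0.148 and Angpt1 -0.173 in the interaction. Without the Y-low libraries, Vegfb was -0.082 in WT MI against WT sham and Angpt1 0.131 in KO sham against WT sham. With the length and GC correction, Vegfb was -0.064 in WT MI against WT sham and 0.062 in KO sham against WT sham, and Kdr 0.024 in KO MI against KO sham. Without the fourth-component libraries, Vegfb was -0.028 in WT MI against WT sham, Kdr 0.028 and Vegfb 0.037 in KO MI against KO sham, Angpt1 0.047 in KO sham against WT sham and -0.303 in KO MI against WT MI, and Vegfb 0.065 and Angpt1 -0.35 in the interaction. Leaving out 1 library, the ranges that crossed 0 were -0.188 to 0.016 (Kdr) and -0.102 to 0.024 (Vegfb) in KO MI against KO sham; -0.201 to 0.0067 (Kdr), -0.301 to 0.031 (Aplnr), -0.098 to 0.459 (Angpt1) and -0.143 to 0.044 (Angpt2) in KO MI against WT MI; -0.117 to 0.0011 (Tek), -0.218 to 0.0018 (Pgf) and -0.082 to 0.0899 (Vegfb) in WT MI against WT sham; -0.167 to 0.0094 (Vegfb) and -0.22 to 0.191 (Angpt1) in KO sham against WT sham; and -0.15 to 0.028 (Vegfb) and -0.064 to 0.507 (Angpt1) in the interaction.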

Other observations

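Transcripts of the cells that surround vessels were called in both directions between the sham groups, while their summed levels overlapped. Of 15 genes of pericytes and smooth muscle, 7 rose and 4 fell in KO sham against WT sham, where 15.3% of all genes were called. The pericyte genes Rgs5 and Rgs4, regulators of G protein signalling, rose 1.88 and 1.78 times (edgeR adjusted p = 0.000669 and 0.0018), while the contractile smooth muscle genes Tagln and Cnn1 were 1.82 and 2.68 times lower (adjusted p = 0.000235 and 0.00138). In KO MI against KO sham, Tagln and Cnn1 rose 1.74 and 2.15 times (adjusted p = 0.000665 and 0.00812), and the pericyte genes Abcc9 and Pdgfrb were 1.59 and 1.41 times lower (adjusted p = 0.0015 and 0.0254). The summed level of the list was 1600 to 1974 CPM in KO MI, 1808 to 2157 CPM in WT MI tissue, 2014 to 2265 CPM in KO sham and 1843 to 2301 CPM in WT sham. The KO sham samples enter both comparisons.

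The classes of endothelium did not all go one way in KO sham against WT sham, where 7.6% of all genes rose and 7.74% fell. Of 10 capillary genes 3 rose and 1 fell, Cd300lg by 1.49 times (adjusted p = 0.000981), Tcf15 by 1.92 times (adjusted p = 0.00868) and the carbonic anhydrase Car4 by 1.6 times (adjusted p = 0.0147), while the transcription factor Meox2 was 1.56 times lower (adjusted p = 0.000701). Of 11 tested endocardial genes, of the lining of the chambers, 4 fell and none rose, among them Plvap, a protein of fenestrated endothelium, 1.59 times lower (adjusted p = 0.0171). Of 14 arterial and venous genes 2 rose and 1 fell. Of 9 lymphatic genes 1 fell, a count near the share over all genes, namely the hyaluronan receptor Lyve1, 1.66 times lower (adjusted p = 0.0436).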
